A study of Mus musculus with 20 samples.

Results

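Doxycycline (Doxy) was compared with no Doxy in the heart ventricle of mice carrying the tetracycline transactivator (tTA). The arrays were chosen by title: 5 titled tTA +Doxy (numbers 7399, 7424, 7485, 7486 and 7488) and 8 titled tTA with a number (7288, 7292, 7294, 7308, 7310, 7311, 9310 and 9322), 13 of the 20 arrays of the series. Each array measured 12488 Affymetrix probe sets in total RNA of ventricular tissue, and all 12422 that are not controls were tested. The other groups are 4 FVBN +Doxy arrays (8337, 8338, 8340 and 8341) and 2 FVBN control arrays (8177 and 8182), titled by strain alone and taken here as without tTA. They shared the model fit and gave the Doxy difference against which the tTA one was set.

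Both groups compared carry tTA by their titles, and Doxy is the only difference their labels name. FVBN, a mouse strain, is named on other arrays of the series and not on these. A keyword attached to 3 arrays outside both groups names the alpha MHC promoter, that of the alpha myosin heavy chain gene, which drives expression in heart muscle cells. The labels give no dose, duration, age, sex or line, and do not say whether arrays are separate animals. The p-values therefore measure the spread between these arrays, whose number limits the precision. The tTA +Doxy arrays are numbered 7399 to 7488, while the tTA arrays form 2 runs on either side of these, 7288 to 7311 and then 9310 and 9322. No run mixes the groups, so Doxy and whatever the numbers stand for cannot be told apart. No probe set measures the transgene, so its expression was not checked.

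The tTA protein joins a bacterial tetracycline repressor to a viral activation domain. It activates genes placed behind tetracycline operator sites, and Doxy, a tetracycline antibiotic, releases it from those sites. In mice built for regulated expression, Doxy is given to keep the responder gene off. Doxy itself also inhibits mitochondrial translation and matrix metalloproteinases, effects that do not need tTA.

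One gene separated the groups. Gstm5, which encodes a mu-class glutathione S-transferase, an enzyme that joins glutathione to reactive compounds, fell in tTA +Doxy ventricles at both of the probe sets that passed the test, by more than 3-fold. Its other probe sets and the other measured genes of the mu class did not pass. In both groups of mice without the transgene Gstm5 was low, with or without Doxy.

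The 300 bases around the annotated Gstm5 start, most of them before it, are shown because it is the only gene called, and those of Gstm2, a neighbour in the same cluster that did not pass, are shown for comparison. Both were taken from RefSeq on build GRCm38.p6. The Gstm5 window is at chr3:107895604-107895903 on the plus strand and the Gstm2 window at chr3:107986371-107986670 on the minus strand, each written 5′ to 3′ in the direction of the gene. Capitals mark matches to TGACNNNGC, the core of the antioxidant response element, or to the motif of nuclear respiratory factor 1, on either strand.
Gstm5: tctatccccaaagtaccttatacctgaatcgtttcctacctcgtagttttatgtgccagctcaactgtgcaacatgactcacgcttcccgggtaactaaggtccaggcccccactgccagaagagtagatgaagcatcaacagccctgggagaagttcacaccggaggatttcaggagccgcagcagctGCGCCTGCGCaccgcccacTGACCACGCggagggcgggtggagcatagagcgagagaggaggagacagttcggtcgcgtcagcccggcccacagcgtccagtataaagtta
Gstm2: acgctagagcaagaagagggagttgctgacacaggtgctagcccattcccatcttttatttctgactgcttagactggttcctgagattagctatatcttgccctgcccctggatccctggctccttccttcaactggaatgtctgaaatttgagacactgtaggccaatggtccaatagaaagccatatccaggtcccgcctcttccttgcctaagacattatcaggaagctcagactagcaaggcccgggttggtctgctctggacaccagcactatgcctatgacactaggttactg

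The Gstm5 window holds a match to each motif, which do not overlap, the first base of the antioxidant motif standing at position -42 from the start. Gstm2 has neither. Over all 32851 such windows, 12.4% hold TGACNNNGC and 4.6% hold the nuclear respiratory factor 1 motif. A match is a run of letters and says nothing on binding.

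At the brighter called Gstm5 probe set the tTA +Doxy arrays read 9.51, 9.34, 9.61, 9.43 and 9.53 in log2 intensity, against a lowest of 10.52, a median of 11.20 and a highest of 11.44 in tTA. Every tTA +Doxy array lay below every tTA array. The means were 9.48 ± 0.10 (SD, n = 5) in tTA +Doxy and 11.13 ± 0.30 (SD, n = 8) in tTA. The log2 difference of -1.65 ± 0.13 (SE, 95% interval -1.92 to -1.37) is a 3.13-fold lower level, with a limma adjusted p of 1.41e-05. At the dimmer called Gstm5 probe set the tTA +Doxy arrays read 7.43, 7.22, 7.64, 7.44 and 7.53, against 8.52 to 9.94 in tTA (median 9.39). Again no array overlapped, and the difference was -1.79 ± 0.21, or 3.45-fold (95% interval -2.23 to -1.35, limma adjusted p = 0.00167). With only the 13 arrays compared in the fit, the dimmer probe set no longer passed (adjusted p = 0.0538).

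The spread of Gstm5 was unequal in the groups. At the dimmer called probe set the SD was 0.15 in tTA +Doxy and 0.52 in tTA, where arrays 7288, 7292 and 9310 were lowest. A further Gstm5 probe set was also lower on every tTA +Doxy array than on any tTA array, with 6.12 to 6.24 against 6.25 to 6.54. Its difference of -0.22 ± 0.06 did not pass (limma adjusted p = 0.419). At the remaining one, tTA +Doxy arrays read 8.71 to 9.11 and tTA arrays 8.66 to 9.13, with a difference of 0.01 ± 0.09. Some of these probe sets can take signal from close relatives, so the Gstm5 probe sets are not interchangeable.

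The FVBN arrays give the level of Gstm5 in mice taken as without tTA. The brighter called Gstm5 probe set read 9.06 to 9.41 on FVBN +Doxy arrays, and 9.26 and 9.31 on FVBN control arrays. The Doxy difference there was -0.04 ± 0.20, and the tTA difference minus the FVBN one was -1.61 (limma adjusted p = 0.0529), just short of passing the threshold of 0.05. The dimmer one read 6.76 to 6.98 on FVBN +Doxy arrays, and 7.28 and 7.06 on FVBN control arrays. Its difference of differences, -1.47, did not pass either (limma adjusted p = 0.233).

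**Figure D1:**
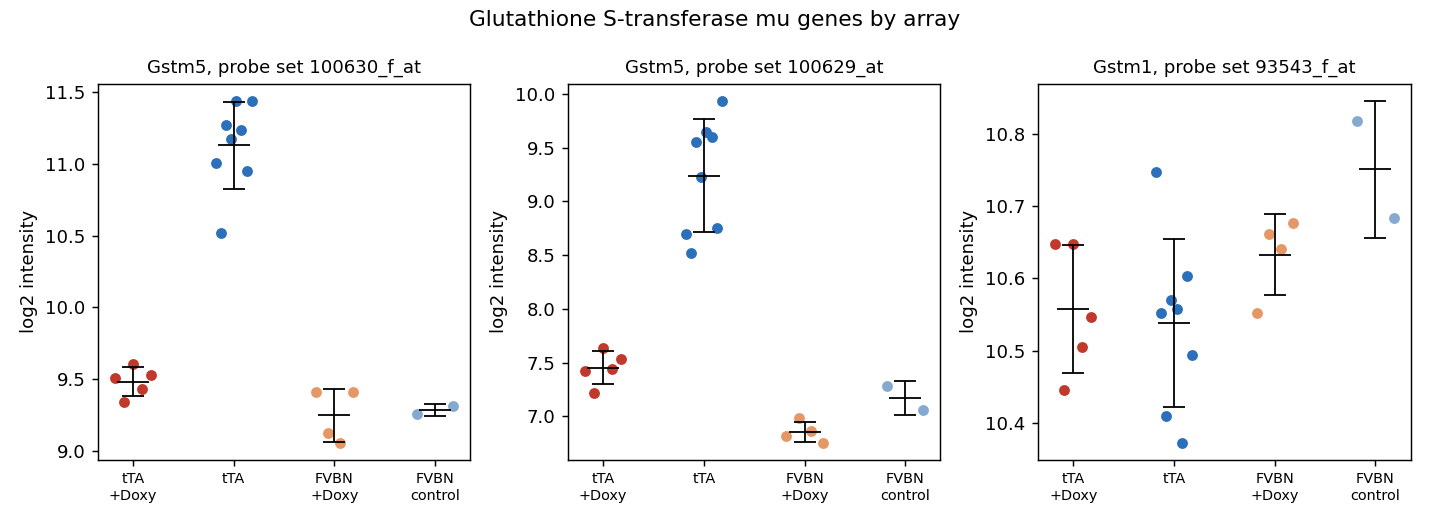
Log2 intensity on each array (points) with the group mean and SD (bars) for the brighter called Gstm5 probe set (left), the dimmer one (middle) and Gstm1 (right), in tTA +Doxy (5 arrays), tTA (8), FVBN +Doxy (4) and FVBN control (2). At the brighter Gstm5 probe set the tTA +Doxy arrays reach 9.61 at most and the tTA arrays start at 10.52, while the Gstm1 groups overlap; the vertical axes do not start at 0 and differ between panels.

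None of the relatives of Gstm5 passed the test. Gstm1 read 10.45 to 10.65 on tTA +Doxy arrays and 10.37 to 10.75 on tTA arrays. Its difference of 0.02 ± 0.06 has a 95% interval of -0.10 to 0.14, which leaves out any change of the size seen for Gstm5. Gstm3 differed by 0.04 ± 0.05 and Gstm6 by -0.01 ± 0.04. Gstm2, at 1 of its probe sets, leaned the other way, with 8.21 to 8.59 on tTA +Doxy arrays and 7.96 to 8.36 on tTA arrays, overlapping (0.22 ± 0.08, limma adjusted p = 0.579), and by -0.05 ± 0.09 at its brighter one. Gsta4, an alpha-class enzyme, differed by 0.00 ± 0.04. Of the 37 measured genes of glutathione and NRF2 metabolism, Gstm5 alone was called, and the list's median difference was -0.03.

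Across the whole array the Doxy difference in tTA ventricle was small. Only 2 of the Gstm5 probe sets were called, and no others, which is 2 of 12422 (0.0161%). An unadjusted limma p below 0.05 was found at 816 (6.57%), 447 higher (3.6%) and 369 lower (2.97%). The SD of the differences over all probe sets was 0.07 on the log2 scale. Only 67 probe sets differed by more than 0.25 in either direction, 49 of them higher and 18 lower, and the Gstm5 pair alone differed by more than 1. The arrays of the groups did not overlap at 38 probe sets (0.306%), 17 higher (0.137%) and 21 lower (0.169%).

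The low count depends on how dim probe sets are handled. On 875 probe sets every one of the 19 grouped arrays stood at the floor, an intensity of 14.36, and their absent spread weakened the sharing of variance across probe sets. Without the floor 5 of 12422 were called (0.0403%): the Gstm5 pair, and Mrpl20, Myl9 and Ccdc58, all higher. With the brightest 60% alone there were 5, and with the brightest 40% there were 7, of which 5 were higher: Mrpl20, Myl9, Chchd7, Dnm1l and Mt1. The brighter Gstm5 probe set passed in all 40 alternative fits and the dimmer one in 39.

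**Figure D2:**
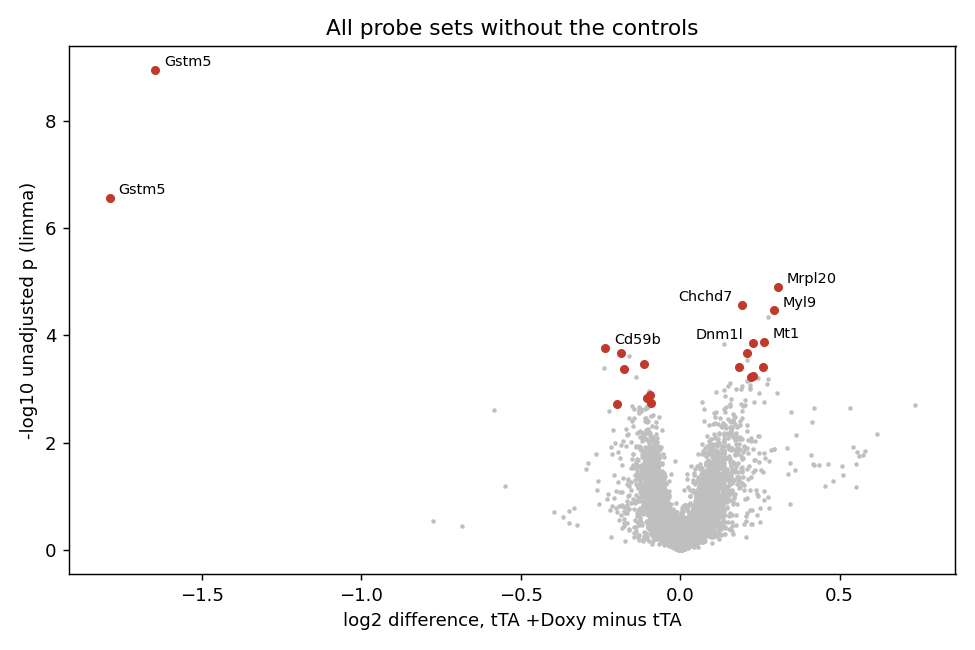
Each point is 1 of 12422 probe sets, with the log2 difference (tTA +Doxy minus tTA) on the horizontal axis and -log10 of the unadjusted limma p on the vertical axis. Red points are the called probe sets and those with the smallest p in each direction among probe sets linked to 1 gene and brighter than the median; the Gstm5 pair stands apart at -1.65 and -1.79.

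Mrpl20, Chchd7, Myl9, Mt1 and Dnm1l came nearest to a call on the higher side. They are given as values, since none passed in the fit described so far. With the floor kept, Mrpl20 passed with array weights, with plain moderation, once beta-actin's ratio entered the fit, and without tTA array 7294. Myl9 passed with array weights and without tTA array 7310, Chchd7 without tTA +Doxy array 7488, and Dnm1l without tTA array 7294. Over all 40 alternative fits, with and without the floor, Mrpl20 passed in 20 and Myl9 in 12. Mrpl20, a protein of the large subunit of the mitochondrial ribosome, read 7.504, 7.33, 7.24, 7.28 and 7.28 in tTA +Doxy, against 6.90 to 7.10 in tTA (median 7.04). No array overlapped, and 7399 was the highest. The difference was 0.31 ± 0.05 (95% interval 0.20 to 0.41), with a limma adjusted p of 0.0511 with the floor and 0.00868 without it. In FVBN mice it was -0.02 ± 0.07, and the difference of differences was 0.33 (limma adjusted p = 0.276).

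Myl9, a regulatory light chain of smooth muscle and non-muscle myosin, read 7.20, 7.18, 7.15, 7.13 and 7.16 in tTA +Doxy, against 6.73 to 7.02 in tTA (median 6.90). The tTA +Doxy arrays lay close together and above all tTA arrays. The difference was 0.29 ± 0.05 (limma adjusted p = 0.084 with the floor, 0.0199 without). Among the FVBN arrays Myl9 was lower than in either tTA group, with means of 6.63 in FVBN +Doxy and 6.65 in FVBN control.

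Chchd7, a small twin-CX9C protein of mitochondria, read 8.68, 8.62, 8.58, 8.72 and 8.52 in tTA +Doxy, against 8.36 to 8.48 in tTA (median 8.43). These arrays did not overlap either, at a difference of 0.19 ± 0.03 (limma adjusted p = 0.084 with the floor, 0.0992 without). Ccdc58, which lies outside the rule for named genes and was chosen after its values were seen, averaged 5.90 ± 0.08 in tTA +Doxy and 5.62 ± 0.10 in tTA (SD, n = 5 and 8), without overlap (0.28 ± 0.05, adjusted p = 0.0945 with the floor, 0.0303 without).

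Dnm1l, the dynamin-like GTPase that divides mitochondria, read 7.21, 7.13, 7.22, 7.29 and 7.19 in tTA +Doxy, against 6.89 to 7.18 in tTA (median 6.95). One tTA array reached into the range of the tTA +Doxy arrays, and the difference of 0.23 ± 0.05 did not pass (limma adjusted p = 0.198). Mt1, metallothionein 1, which binds zinc and is raised by metals and glucocorticoids, read 9.88, 9.94, 9.90, 9.88 and 9.87 in tTA +Doxy, against 9.43 to 9.73 in tTA (median 9.65). The groups did not overlap, and the difference was 0.26 ± 0.05 (limma adjusted p = 0.198). Both FVBN groups averaged above both tTA groups.

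The other genes of the higher side, by the smallest p, had limma adjusted p-values of 0.22 to 0.334. Mrpl34 and Mrpl15, both of the large mitochondrial ribosomal subunit, differed by 0.23 ± 0.05 and 0.22 ± 0.05, with all tTA +Doxy arrays above all tTA arrays at each. Atp6v1b2, a subunit of the vacuolar proton pump, differed by 0.21 ± 0.04. Rpn1, a subunit of the oligosaccharyltransferase of the endoplasmic reticulum, differed by 0.26 ± 0.06, and Nop56, a nucleolar protein of ribosome assembly, by 0.18 ± 0.04. Each of these was above the tTA mean on all 5 tTA +Doxy arrays.

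**Figure D3:**
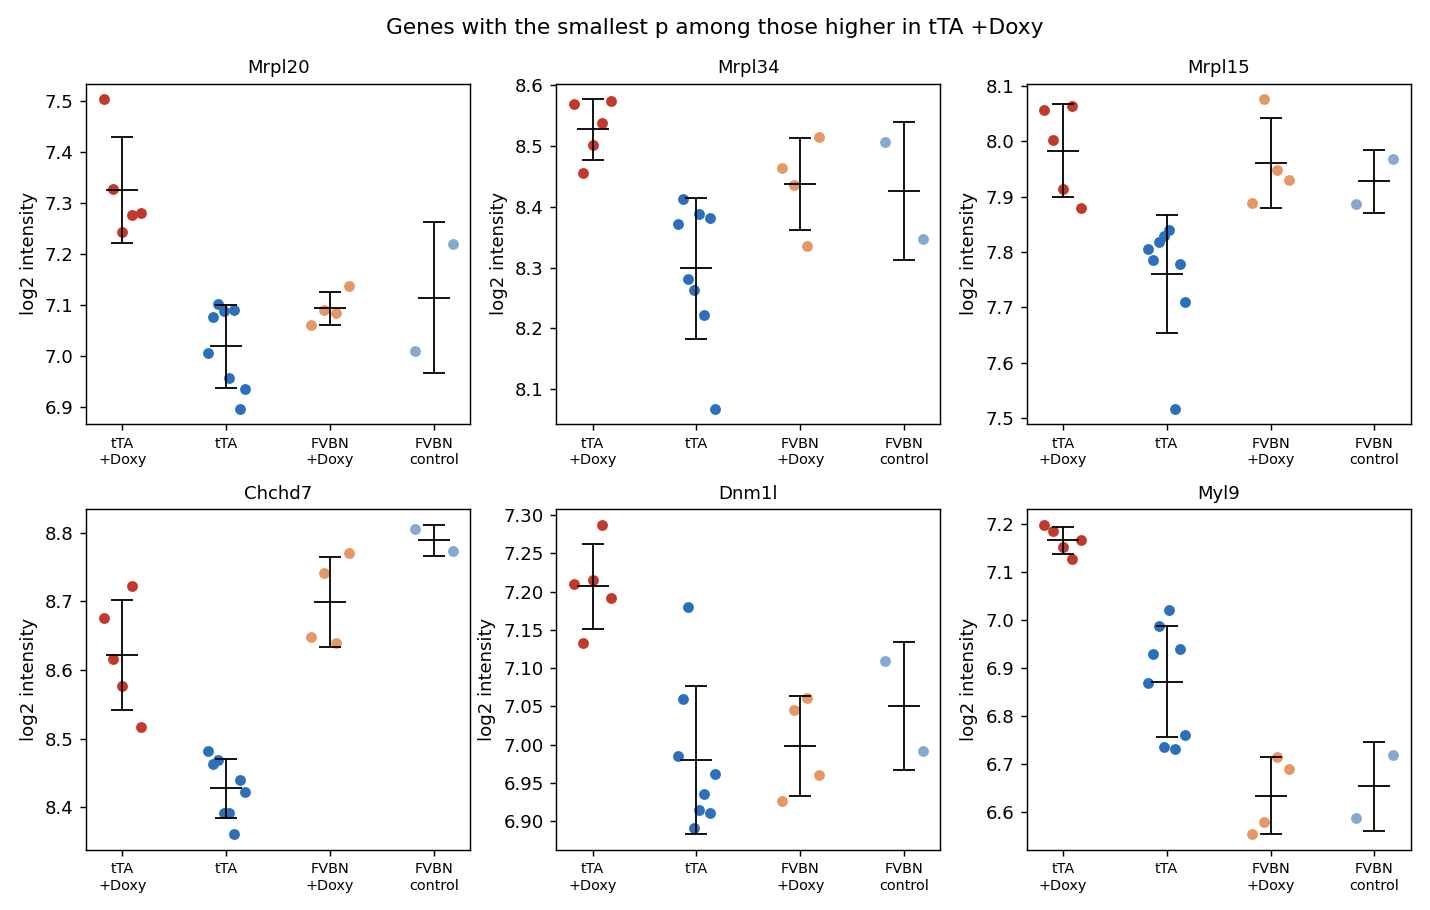
Log2 intensity on each array (points) with group mean and SD (bars) for 6 of the genes with the smallest p among those higher in tTA +Doxy; groups run tTA +Doxy, tTA, FVBN +Doxy and FVBN control, and the vertical axes do not start at 0. At Mrpl20, Mrpl34, Mrpl15, Chchd7 and Myl9 all tTA +Doxy arrays lie above all tTA arrays, and at Dnm1l 1 tTA array overlaps.

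On the lower side no gene but Gstm5 passed. Cd59b, an inhibitor of the complement membrane attack complex, read 5.85, 5.60, 5.86, 5.72 and 5.68 in tTA +Doxy, against 5.89 to 6.12 in tTA (median 5.97). The arrays did not overlap (-0.23 ± 0.05, limma adjusted p = 0.211). Pim1, a serine/threonine kinase of growth and survival signaling, read 8.15 to 8.27 in tTA +Doxy and 8.25 to 8.47 in tTA, overlapping at the edge (-0.18 ± 0.04, limma adjusted p = 0.22). Sox4, a transcription factor of heart outflow development, read 7.32 to 7.51 in tTA +Doxy and 7.53 to 7.75 in tTA, without overlap (-0.18 ± 0.04, limma adjusted p = 0.278). Ctf1, the cytokine cardiotrophin 1, known for inducing hypertrophy of heart muscle cells, differed by -0.20 ± 0.05 (limma adjusted p = 0.419). Htr1d, Snx9, Nomo1 and Rnf10, the rest of those with the smallest p, differed by -0.11, -0.09, -0.10 and -0.09.

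Markers of the heart muscle cell differed little. Myh6, the alpha myosin heavy chain of the adult mouse ventricle, read 11.97 to 12.14 in tTA +Doxy and 11.89 to 12.17 in tTA (0.01 ± 0.04, 95% interval -0.08 to 0.10). Atp2a2, the calcium pump of the sarcoplasmic reticulum, differed by -0.01 ± 0.07, and Gja1, the main ventricular connexin, by 0.01 ± 0.05. Ryr2, the calcium release channel, differed by 0.08 ± 0.08. Slc8a1, the sodium-calcium exchanger, was 0.19 ± 0.06 higher, with an adjusted p of 0.463. Of the 20 measured sarcomere genes none was called and the median was -0.00. None of these intervals or p-values shows that the levels were the same, since each allows small differences.

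Genes of the fetal and hypertrophy program spread widely within each group. Acta1, skeletal alpha-actin, read 10.46, 11.40, 11.01, 10.73 and 11.17 in tTA +Doxy, against 10.42 to 11.68 in tTA (-0.05 ± 0.19, 95% interval -0.45 to 0.35). Myh7, the beta myosin heavy chain, read 9.66 to 10.65 in tTA +Doxy and 9.52 to 10.27 in tTA (-0.00 ± 0.18). Nppa and Nppb, which encode the natriuretic peptides, differed by -0.08 ± 0.12 and 0.02 ± 0.19. These groups overlapped widely, so small differences were not detectable. Clu, the secreted chaperone clusterin, read 9.54 to 9.74 in tTA +Doxy and 9.32 to 9.84 in tTA (0.05 ± 0.07). Ces1d, a carboxylesterase, differed by -0.01 ± 0.13, and Corin, the protease that processes natriuretic peptides, by 0.19 ± 0.08 (adjusted p = 0.7).

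Acta2, smooth muscle alpha-actin, read 7.78, 7.92, 8.52, 7.59 and 7.89 in tTA +Doxy, against 7.19 to 7.68 in tTA (median 7.37). Array 7485 was highest and 7486 lay within the tTA range. The difference of 0.53 ± 0.15 did not pass (limma adjusted p = 0.419). Tpm2, beta-tropomyosin, went the opposite way, with 7.88 to 8.05 in tTA +Doxy and 7.89 to 8.53 in tTA (-0.29 ± 0.12, adjusted p = 0.691). Among the 16 measured smooth muscle and pericyte markers 3 were higher and 2 lower at an unadjusted p below 0.05, and the median was 0.01. Without tTA +Doxy array 7488 the counts were 5 higher and 0 lower and the median -0.00, and without 7485, 7308 or 9322, or without 9310 and 9322 together, none was lower. Without any other single array but 7486 or 7292, 1 was lower, and without 7292 the median was -0.00. In bulk tissue fewer cells of a type and less RNA per cell cannot be told apart, here and for the other cell type lists.

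The 47 gene lists hold 1431 genes, and 1117 of them were measured by a probe set linked to that gene alone, the brightest where there were several. Such a link does not exclude signal from related transcripts. Gstm5 was the only one called (1 of 8251 genes, 0.0121%), and list medians ran from -0.04 to 0.07. For comparison, over all 8251 genes 335 (4.06%) were higher and 275 (3.33%) lower at an unadjusted limma p below 0.05, and the median was -0.00. Counts at that threshold describe the lists and carry no test of the list, since members of a list share the same arrays.

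Mitochondrial ribosomal proteins, which make the ribosome that translates mitochondrial DNA, had more members on the higher side than any other list by count, being also 1 of the longest lists. Of 61 measured, 15 (24.6%) had a higher value at an unadjusted p below 0.05 and none a lower one. The difference was above 0 for 52 of the 61 (85.2%), against 44% of all genes, and the median was 0.05. All genes include some at the floor on all 13 arrays, such as Myh1, whose groups cannot differ. Over all 12422 probe sets, 17 (0.137%) were higher without overlap. In this list the arrays did not overlap at Mrpl20, Mrpl34 and Mrpl15, named above for their small p, and at Mrpl58. The last read 6.88 to 6.99 in tTA +Doxy and 6.58 to 6.85 in tTA (0.17 ± 0.05, adjusted p = 0.474). Mrps34 (0.16 ± 0.04), Mrpl12 (0.15 ± 0.06) and Mrpl43 (0.12 ± 0.04) were among the other members.

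The mean log2 level of these 61 genes was 7.36, 7.29, 7.32, 7.35 and 7.30 on the tTA +Doxy arrays, against 7.21 to 7.29 on the tTA arrays (median 7.27). Array 7424 lay within the tTA range and the other 4 above it. In FVBN mice the same genes had a median Doxy difference of -0.08. For the difference of differences, 17 of the 61 were higher and 1 lower at an unadjusted p below 0.05, while over all genes 5.49% were higher and 7.67% lower. No member was called there, and the FVBN difference rests on 2 control arrays. Without arrays 7288 and 7399 the count of 15 became 8, and it became 10 without tTA +Doxy array 7399, without 7486, and without tTA arrays 9310 and 9322, with the median above 0 in every fit run. Of the 53 whose promoter window is in the RefSeq table, 8 (15.1%) hold the nuclear respiratory factor 1 motif, against 5.19% of all genes. TGACNNNGC is held by 11 (20.8%), against 14% of all genes. These shares cover the list and not its higher members alone, and the Mrpl20 window holds neither motif. A link between motif and difference was not tested.

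Of 22 mitochondrial chaperones, import proteins and proteases 7 (31.8%) were higher and 1 lower at an unadjusted p below 0.05 (median 0.06). They include Timm17a (0.16 ± 0.04), Tomm20 (0.14 ± 0.04) and Timm23 (0.14 ± 0.04), of the import channels, and Grpel1 (0.16 ± 0.05), a cofactor of the matrix chaperone, while the protease Htra2 was on the lower side (-0.12 ± 0.06). Of 67 nuclear-encoded respiratory chain genes 5 were higher, Cox6a1 (0.19 ± 0.06) and Ndufb8 (0.10 ± 0.04) first, and the median was 0.01. This count depended on scaling, with 12 higher and a median of 0.05 with median scaling, and 11 higher and a median of 0.04 with no further normalization. It was 3 with array weights, without tTA +Doxy array 7399 or 7486, without tTA array 7310 or 7311 and without arrays 7288 and 7399, and the median was -0.00 without 7486. Slirp, which stabilizes mitochondrial messenger RNA, differed by 0.18 ± 0.05 in tTA and by -0.31 ± 0.08 in FVBN. None of the 35 fatty acid oxidation genes reached an unadjusted p below 0.05.

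Proteasome and ubiquitin genes leaned the same way, with 6 of 42 higher and none lower (median 0.05, and -0.11 in FVBN). Psme1, a subunit of the interferon-inducible activator of the proteasome, was first at 0.27 ± 0.07 (adjusted p = 0.348). Psmc2, an ATPase subunit, differed by 0.08 ± 0.03 in tTA and by -0.27 ± 0.05 in FVBN (adjusted p of the difference = 0.118). The count of 6 became 3 without tTA +Doxy array 7399, and 4 without 7486 or without tTA arrays 9310 and 9322; it was 10 with median scaling and 9 without tTA array 7294. Glycolysis had 4 of 22 higher, among them Pfkp, the platelet phosphofructokinase (0.35 ± 0.10), and Pgam1, a phosphoglycerate mutase (0.22 ± 0.05).

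Glucocorticoid-responsive genes and metallothioneins had 4 of 24 higher and none lower, with a median of 0.01. Zbtb16, a zinc finger repressor raised by glucocorticoids, read 7.02, 7.74, 7.13, 6.89 and 7.28 in tTA +Doxy, against 6.61 to 7.06 in tTA (0.41 ± 0.12, adjusted p = 0.474). Array 7424 was the highest and 7399 and 7486 overlapped tTA. Fkbp5, a cochaperone of the glucocorticoid receptor, read 6.05 to 6.24 in tTA +Doxy and 5.88 to 6.04 in tTA, without overlap (0.16 ± 0.04, adjusted p = 0.416). Nampt, the enzyme of NAD salvage, from the circadian clock list, read 6.74 to 6.81 in tTA +Doxy and 6.81 to 7.22 in tTA. Its tTA +Doxy arrays all lay below the lowest tTA array, by a margin hidden by rounding (-0.19 ± 0.07, adjusted p = 0.59). Cdkn1a, a cell cycle inhibitor, and Gon4l, a transcriptional regulator, differed by 0.00 ± 0.04 and 0.01 ± 0.04.

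**Figure D4:**
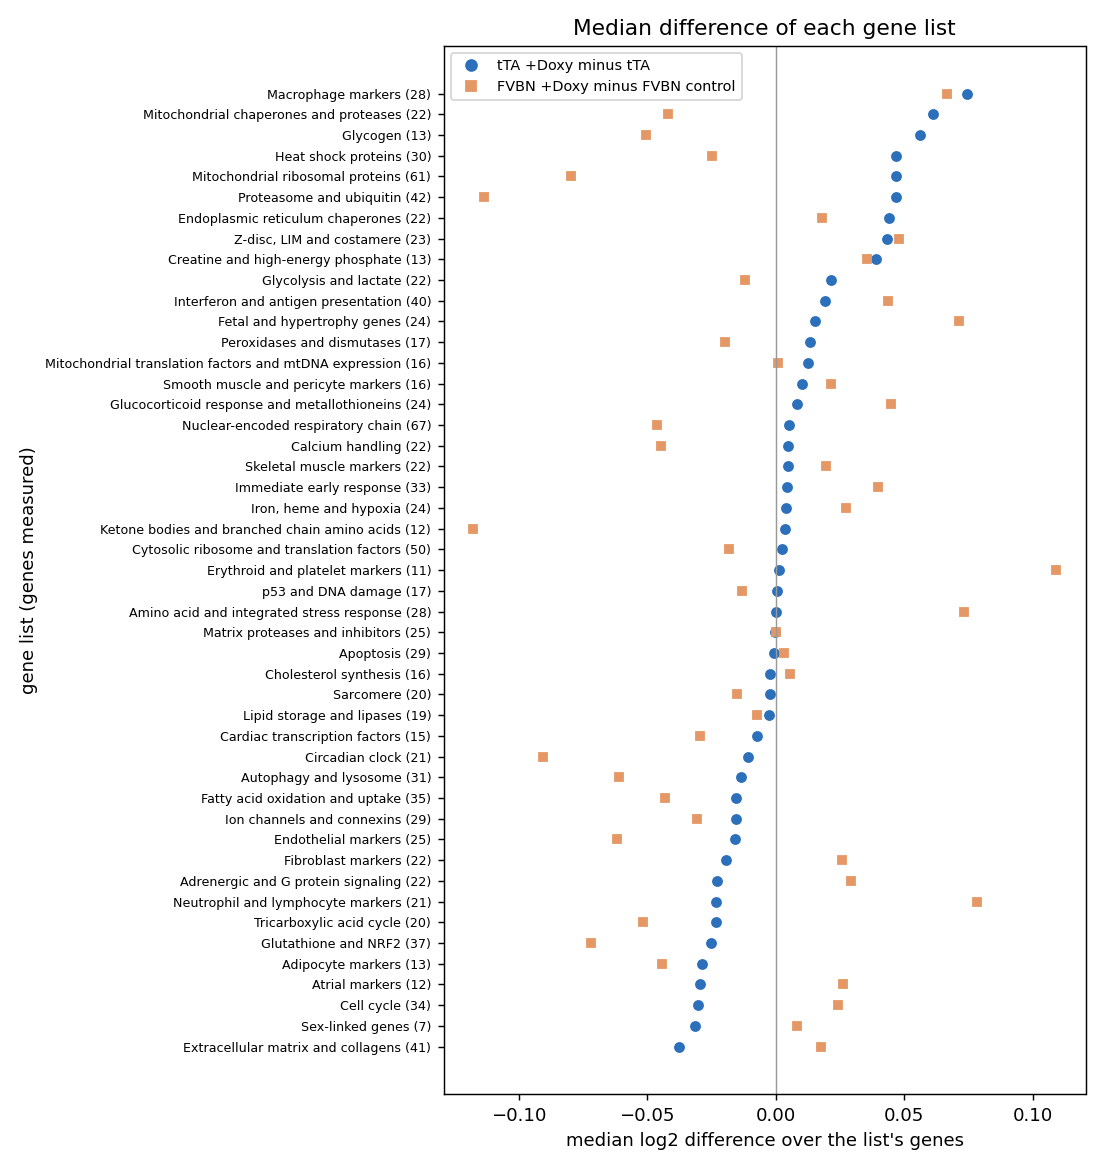
Median log2 difference of each of the 47 gene lists, with the number of measured genes in brackets, for tTA +Doxy minus tTA (circles) and FVBN +Doxy minus FVBN control (squares). In tTA the medians stay between -0.04 and 0.07; those of the mitochondrial ribosomal proteins are 0.05 in tTA and -0.08 in FVBN.

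Matrix genes leaned lower. Of 41 genes of the extracellular matrix and collagens 5 were lower and 1 higher at an unadjusted p below 0.05, and the median of -0.04 was the lowest of the lists. Col5a1, a collagen chain, read 6.91 to 7.14 in tTA +Doxy and 7.03 to 7.29 in tTA (-0.11 ± 0.04, adjusted p = 0.669). Fbln1 (-0.13 ± 0.06) and Loxl1 (-0.12 ± 0.05) were also lower, and Fbln2 higher (0.15 ± 0.06). Median scaling gave 2 lower and 2 higher. With 1 array left out, 1 was lower without 7424, 7311 or 9310, 2 without 7485 or 7488, and 3 without 7486, 7310 or 9322. None of the 25 matrix proteases and inhibitors was lower at that threshold, and 1 was higher.

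Genes of antigen presentation showed some of the widest differences after Gstm5, with wide spread. B2m, the light chain of class I molecules, read 10.56, 11.002, 10.17, 10.72 and 10.85 in tTA +Doxy, against 9.53 to 10.68 in tTA (median 9.96). The 2 highest tTA arrays, 7288 at 10.68 and 7292 at 10.45, reached into the range of tTA +Doxy. The difference was 0.62 ± 0.20 (limma adjusted p = 0.55). The class I heavy chains H2-K1 (0.58 ± 0.21) and H2-D1 (0.55 ± 0.22), each at its brightest probe set, and the class II chaperone Cd74 (0.55 ± 0.28) differed alike and did not pass, and in FVBN mice B2m differed by 0.40 ± 0.30. Over the list of 40 genes 5 were higher and 1 lower, with a median of 0.02. The higher count was 10 without tTA array 7288, 9 without tTA +Doxy array 7485, 9 with median scaling, 8 without arrays 7288 and 7399, and 3 without tTA +Doxy array 7399 or 7488 or without tTA arrays 9310 and 9322. The median was 0.00 without 7399, 7294 or 7311.

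Macrophage markers had the highest list median, 0.07, and a median of 0.07 in FVBN mice too. Of 28 measured, 8 were higher and none lower at an unadjusted p below 0.05. Ccl9, a chemokine, read 6.12, 6.37, 6.08, 6.08 and 6.10 in tTA +Doxy, against 5.77 to 6.04 in tTA, without overlap (0.22 ± 0.05, adjusted p = 0.334). Complement genes C1qb (0.29 ± 0.10) and C1qa (0.23 ± 0.09) and the mannose receptor Mrc1 (0.16 ± 0.05) were among the others. The mean of the 28 ran from 5.81 to 5.998 on tTA +Doxy arrays and from 5.77 to 5.87 on tTA arrays, with 7424 and 7399 above all tTA arrays. The count was 3 without 7399, without 7424, and without tTA arrays 9310 and 9322, and 5 with only the arrays compared in the fit. None of the 21 neutrophil and lymphocyte markers reached the threshold in either direction.

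**Figure D5:**
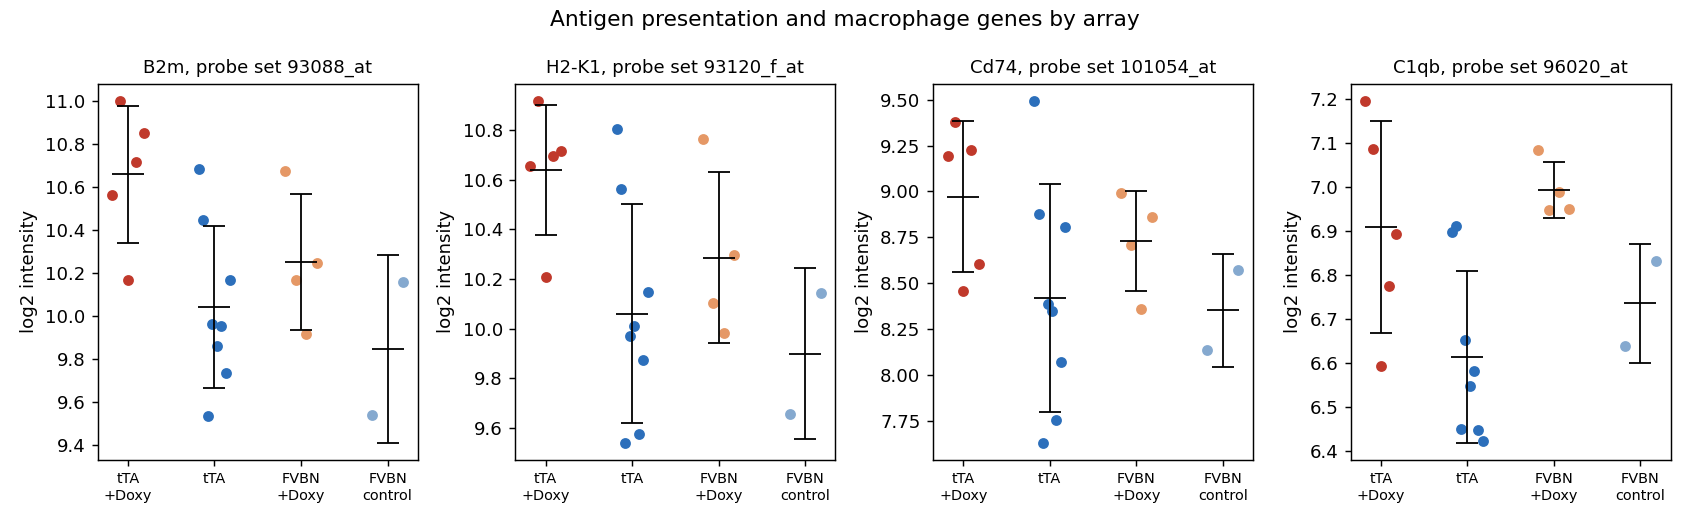
Log2 intensity on each array (points) with group mean and SD (bars) for B2m, H2-K1, Cd74 and C1qb in tTA +Doxy, tTA, FVBN +Doxy and FVBN control; the vertical axes do not start at 0. The groups overlap for all 4 genes, and tTA array 7288 reads 10.68 at B2m, within the tTA +Doxy range.

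Probe sets of 3 genes outside the rule, chosen after their values were seen, had large differences that did not pass. Wdr92, a cofactor of the assembly of axonemal dyneins, read 11.50 to 11.82 in tTA +Doxy and 10.20 to 11.50 in tTA (0.74 ± 0.20, limma adjusted p = 0.419). Adgrg1, an adhesion receptor, read 6.56 to 6.83 in tTA +Doxy and 6.82 to 7.88 in tTA (-0.58 ± 0.16, limma adjusted p = 0.419). Noct, a deadenylase with a daily rhythm in several tissues, read 7.42 to 7.91 at 1 of its probe sets in tTA +Doxy and 7.13 to 7.59 in tTA (0.30 ± 0.08, limma adjusted p = 0.369).

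Markers of tissue and controls of RNA quality were also compared. Ventricular markers were bright on all 13 arrays (Myl2 12.48 to 12.63, Tnni3 12.17 to 12.33). Of the atrial markers, Myl7 (4.94 to 5.72) and Sln (5.36 to 5.73) were dimmer than Myl4 (6.11 to 6.55). The skeletal Myh1 was at the floor on every array, and Tnnt3 (3.84 to 4.07) and Tnni2 (4.76 to 5.13) were dim. Skeletal Myh4 (7.08 to 7.59) and Atp2a1 (6.48 to 6.72) were brighter, so not all markers of these tissues were dim. Some transcripts of liver, a set added after seeing the data, were raised on tTA array 7311. Alb read 6.73 and Mup5 8.07 there, against at most 5.25 and 6.61 on tTA +Doxy arrays. Others of the set differed little: Ttr, Apoa1, Apoa2 and Fgb reached 4.73, 6.61, 6.89 and 3.98 at most on tTA arrays. On tTA +Doxy arrays they reached 4.60, 6.53, 6.68 and 3.84. Tests without array 7311 are among those of each array left out. The beta-actin control probe sets, compared as 3′ signal over 5′ signal in log2, averaged 0.353 ± 0.082 in tTA +Doxy and 0.321 ± 0.114 in tTA (SD, n = 5 and 8, exact two-sided permutation p = 0.591). For Gapdh the ratio was 0.048 higher (exact permutation p = 0.406, 0.591 adjusted over both ratios). Xist differed by -0.11 (exact permutation p = 0.427). Arrays correlated at 0.992 to 0.997 between the groups.

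No probe set passed for the difference between the Doxy difference in tTA and that in FVBN mice: limma called 0 of 12422 (0%), with 1439 (11.6%) at an unadjusted p below 0.05. The brighter Gstm5 probe set was nearest. Without the floor its adjusted p was 0.0212, and it was the only one called. With the brightest 40% alone 5 were called. Their difference of differences was below 0 for Gstm5 and above 0 for Psmc2, Nampt, Slirp and Ier3. Nampt itself was lower with Doxy in both, by -0.19 ± 0.07 in tTA and -0.80 ± 0.11 in FVBN. Leaving out FVBN control 8177 gave 8 calls and leaving out 8182 gave 12, with Gstm5 among neither. Each of these fits has 1 control array, assumed to vary like the other groups. The calls include small differences such as Klf17 (0.04) and Ins2 (0.06), and without 8177 also Xist (-1.68). At Xist the FVBN control arrays themselves read 5.53 (8177) and 4.06 (8182), and the labels give no sex. These counts are given only as values. The count was 3 without 7399, 7292 or 7294 and 2 without 9322.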

How the data were processed

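The authors deposited Affymetrix intensity values on a linear scale, 1 per probe set and array. How the deposited intensities were summarised, background corrected and scaled is not given in the sources used. The medians of the 13 arrays compared ran from 60.7 to 62.5. A platform table linked 10833 of the 12422 tested probe sets to 1 gene, 396 to several and 1193 to none; 66 controls were left out of the tests. The 1 array without a group entered no comparison.

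Intensities were quantile normalized over the 19 grouped arrays, raised to the 10th percentile (14.36) and put on the log2 scale. In R 4.3.3 with limma 3.58.1, a model with 4 group means was fitted with trended, robust variance moderation. The contrasts were tTA +Doxy minus tTA, and that minus the FVBN difference; p-values were adjusted by Benjamini-Hochberg over all 12422, with a call at 0.05. The probe sets at the floor on all arrays cut the prior degrees of freedom to 0.587, against 7.61 without a floor, so results without the floor stand beside the others. Differences are tTA +Doxy minus tTA. Control ratios and Xist were compared by exact two-sided permutation tests over 1287 arrangements. The fit was tested on simulated data.

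Named were up to 12 called probe sets per direction with the largest change, filled up to 10 by the smallest p where fewer were called, among probe sets linked to 1 gene and brighter than the median; up to 4 called members of each list; up to 5 per direction for the difference of differences; and Myh6, Myh7, Nppa, Nppb, Acta1, Acta2, Atp2a2, Clu, Tpm2, Gstm5, Ryr2, Gja1, Corin, Ces1d, Nampt, Cdkn1a, Gon4l and Xist always. List members given as examples were chosen by their p, after their values were seen. Alternatives changed the normalization, floor, brightness filter, weights, moderation, covariates and arrays. The members, gene lists and alternatives were chosen with earlier results of these data known. Plots used Python 3.11.15 and matplotlib 3.10.9.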

Additional observations from a re-analysis of the deposited data

Results flagged for a closer look

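Among 74 sets of values, each a named probe set within tTA +Doxy or tTA, 2 held an array set far from the rest by its gap relative to the range. Chance sets apart about 1 in 20. Mrpl15 read 7.52 on tTA array 7311, below the other tTA arrays at 7.71 to 7.84. Array 7311 is also the one on which some liver transcripts were raised. Nppa read 8.70 on tTA array 9310, above the other tTA arrays at 7.82 to 8.12.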

How the results depend on the processing

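Both Gstm5 calls held when normalization, floor, filter, weights, moderation or covariates were changed, with differences of -1.68 to -1.60 and -1.84 to -1.74, and of -1.73 to -1.60 and -1.89 to -1.69 with 1 array left out, except that the dimmer one was lost with only the arrays compared, leaving 1 call. Without the floor, or with the brightest 60%, 5 were called, with the brightest 40% 7, with array weights 4, and with no floor and the beta-actin covariate 4. Leaving out 1 array gave 2 to 4, the 4 without tTA array 7294; without a floor as well, an alternative chosen after seeing the data, 2 to 10, the 2 without 7399 and the 10 without 7294. The difference of differences had 1 call without the floor, with the brightest 60%, plain moderation, the beta-actin covariate, or without arrays 7288 and 7399, and 1, Herpud1, without 9310 and 9322; 5 with the brightest 40%; 8 with Xist as a covariate; and 0 to 12 with 1 array left out, the 12 with a lone FVBN control array. The actin ratio difference stayed between 0.0044 and 0.0583 and that of Xist between -0.161 and -0.043 with 1 array left out, none passing. No uncalled gene that turned sign passed in any of these fits, and the cause was not tested. Acta1 was 0.0035 with median scaling and 0.0198 with the beta-actin covariate, with or without the floor. Myh7 was 0.0749 with median scaling, 0.0653 with no normalization, 0.0126 with Xist, 0.0719 without 9310 and 9322, and 0.0256 without 7288 and 7399. Atp2a2 was 0.0026 with array weights, 0.0051 without 9310 and 9322, and 0.0068 without 7288 and 7399. Gon4l was -0.0061 with array weights, -0.0080 with beta-actin, and -0.0031 without 7288 and 7399. With Xist and without 9310 and 9322, Cdkn1a was -0.0150 and -0.0085, Ces1d 0.0034 and 0.0048, and Nppb -0.0368 and -0.0983; Nppa was 0.0073 without 9310 and 9322. With 1 array left out the ranges were -0.160 to 0.075 for Acta1, -0.036 to 0.031 for Atp2a2, -0.015 to 0.022 for Cdkn1a, -0.109 to 0.038 for Ces1d, -0.014 to 0.040 for Gja1, -0.014 to 0.040 for Gon4l, -0.010 to 0.032 for Myh6, -0.154 to 0.092 for Myh7, -0.122 to 0.00596 for Nppa and -0.110 to 0.114 for Nppb. Signal near the floor limits what dim genes can show. No paired analysis was possible because the groups share no replicate numbers.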

Other observations

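The array titled Cardiac tTA expression, which the labels put in no group, read 9.43 at the brighter called Gstm5 probe set, 7.16 at the dimmer one and 7.04 at Mrpl20. It entered no comparison.

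Counts for further gene lists in tTA ventricle follow. Over all genes 4.06% were higher and 3.33% lower at an unadjusted limma p below 0.05. None of the 25 endothelial markers was higher and 2 were lower at an unadjusted limma p below 0.05, and none of the 15 cardiac transcription factors reached that threshold in either direction. Of 30 heat shock proteins 2 were higher, among them the cochaperone Dnajb1, which read 5.83 to 6.41 in tTA +Doxy and 5.35 to 6.03 in tTA (0.36 ± 0.12, adjusted p = 0.55). Of 24 genes of iron, heme and hypoxia 4 (16.7%) were higher and 1 (4.17%) lower. Alas1, the rate-limiting enzyme of heme synthesis outside red cells, differed by 0.25 ± 0.10 in tTA and by 0.27 ± 0.15 in FVBN (limma adjusted p = 0.652 in tTA). None of the 34 cell cycle genes was higher and 2 were lower, with a median of -0.03.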
